A study of Homo sapiens with 6 samples.

Results

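Nuclear receptors are transcription factors that mostly carry a zinc finger DNA-binding domain and a ligand-binding domain, and steroids, thyroid hormone, retinoids, vitamin D, bile acids, oxysterols and fatty acids act through them. The 46 members described here are the rows of the deposited expression table whose gene symbol is on a fixed list of human nuclear receptor symbols, out of 31628 genes in the table. All 46 symbols had a row, 41 had a read in at least 1 library, and 24 passed the filter of the main test.

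Poly(A)-selected RNA was sequenced from HCT116 cells, a human colon cancer line, in which ENL, a reader of acetylated histones encoded by MLLT1, carries an auxin-inducible degron. All 3 groups also stably express AtAFB2, a plant F-box protein that hands auxin-bound degrons to a ubiquitin ligase, so the control cells carry both parts of the system. The washout group received auxin (IAA) for 3 h, was rinsed with PBS and grew for 48 h in normal medium. The IAA group received IAA for 3 h at 500 um in the labels' spelling (read here as micromolar), and the control group received none. Each group has 2 libraries, and the sources used here do not give whether a replicate is a separate culture or clone, so p-values measure only the spread between these libraries.

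A nuclear receptor binds DNA at short hexamer sites as a monomer, as a homodimer or with RXR as its partner, and recruits corepressors or coactivators depending on its ligand. Orphan members, such as the COUP-TF and NR4A proteins, act without a known classical ligand and depend largely on how much of the receptor is made. In the intestine the family is known for vitamin D and bile acid handling, lipid metabolism and the identity of the crypt epithelium.

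The contact that reads the hexamer is made by the P box, a short stretch of the first zinc finger. Its coding DNA is shown for receptors on which the results turn, since NR5A2 and the COUP-TFs differ in it from the others. The letters come from GENCODE 29 transcripts, run 5′ to 3′ on the coding strand, and capitals mark the P-box codons.
NR5A2: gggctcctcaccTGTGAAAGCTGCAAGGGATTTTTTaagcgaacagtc
NR2F1: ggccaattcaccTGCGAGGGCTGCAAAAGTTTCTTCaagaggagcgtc
NR2F2: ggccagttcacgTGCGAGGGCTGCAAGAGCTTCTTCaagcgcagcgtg
NR2F6: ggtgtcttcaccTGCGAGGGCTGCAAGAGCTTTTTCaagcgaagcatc
NR4A1: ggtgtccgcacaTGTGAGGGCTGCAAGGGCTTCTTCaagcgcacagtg
NR4A2: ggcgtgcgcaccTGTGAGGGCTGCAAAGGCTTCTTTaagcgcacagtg
NR4A3: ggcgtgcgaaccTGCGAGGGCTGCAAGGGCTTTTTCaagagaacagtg
VDR: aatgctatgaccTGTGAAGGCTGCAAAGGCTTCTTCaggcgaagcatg
NR1D1: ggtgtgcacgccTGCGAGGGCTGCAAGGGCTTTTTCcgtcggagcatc

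The P-box codons were found in 44 of the 46 members. The other members, NR0B1 and NR0B2, are known to lack the DNA-binding domain. Of the 44, 27 encode the same P-box residues, among them VDR, NR1D1 and the NR4A receptors. NR5A2 shares its P box with NR5A1 alone, and NR2F1, NR2F2 and NR2F6 share another that no further member has. Over 66 translated codons starting in the same zinc finger, NR2F1 and NR2F2 were 98.5% identical and NR2F1 and NR2F6 83.3%. NR4A2 and NR4A3 were 97.0% identical, and NR5A1 and NR5A2 87.9%. NR2F1 and NR5A2, the members of largest limma log2 change in IAA against control, were 57.6% identical.

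Promoter letters are shown for 3 receptors, each because the receptor or its group moved and its stretch holds a match to a short motif searched on both strands. They are RefSeq sequences on GRCh38.p14, plus strand, and end at the base before the start site. Capitals mark TGACG, the core of the cyclic AMP response element, in NR4A3 (chr9:99821735-99821884) and NR5A2 (chr1:200042341-200042590), and CACGTG, the E-box of the clock proteins, in NR1D2 (chr3:23945871-23946120).
NR4A3: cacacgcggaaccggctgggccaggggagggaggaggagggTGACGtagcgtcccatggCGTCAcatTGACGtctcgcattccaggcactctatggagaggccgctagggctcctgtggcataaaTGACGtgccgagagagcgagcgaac
NR5A2: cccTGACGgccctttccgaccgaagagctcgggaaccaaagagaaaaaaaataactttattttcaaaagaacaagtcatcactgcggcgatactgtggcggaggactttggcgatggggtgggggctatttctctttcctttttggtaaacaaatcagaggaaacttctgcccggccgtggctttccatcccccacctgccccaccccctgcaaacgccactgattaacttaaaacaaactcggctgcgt
NR1D2: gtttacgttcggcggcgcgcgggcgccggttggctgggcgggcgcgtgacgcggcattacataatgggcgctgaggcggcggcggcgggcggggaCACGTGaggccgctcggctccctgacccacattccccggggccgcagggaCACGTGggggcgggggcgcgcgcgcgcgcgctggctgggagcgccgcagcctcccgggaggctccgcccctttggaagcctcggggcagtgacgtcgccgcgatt

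The NR4A3 stretch holds 4 matches, the NR5A2 stretch 1 and the NR1D2 stretch 2. Of 35116 RefSeq promoter windows, each from 250 bases before to 50 after a start, 24.6% hold TGACG and 7.26% hold CACGTG. The longer element TGACGTCA, which contains TGACG, is in 1.85% of them. A second window of NR5A2 and those of NR4A1 hold no TGACG. A second window of NR1D2 and that of NR1D1 hold no CACGTG. The printed NR1D2 stretch also holds 2 TGACG, not in capitals, and a window of NR2F2 holds 2 CACGTG. Among receptors that did not pass, the windows of PPARD and NR1H2 hold 2 TGACG each, and that of NR6A1 holds TGACGTCA. Another motif searched, GCGTG, is in 36.5% of all windows, and its matches are not shown. Promoter windows were given for 41 members, and none for VDR, NR4A2, NR2F6, HNF4G and NR0B2. A match is a description of the letters, and no binding was measured.

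Library totals, inferred from the deposited values and gene spans, ran from 16440000 to 16770000 reads. The deposited FPKM (fragments per kilobase, scaled to library size) were found to divide by the whole gene span, introns included. Apart from the marker sums below, they were therefore compared between libraries within a gene only. Whole reads could be recovered from them for 99.91% of the 21707 genes above 0. These reads summed to 17237802 to 17538824 per library, above the inferred total in each, and the reason was not tested. MLLT1 had an FPKM of 0.413 and 0.384 after washout, 0.404 and 0.358 with IAA, and 0.412 and 0.427 in control (limma adjusted p = 0.431 for IAA against control). The degron acts on the protein, so its RNA does not check the treatment. Of 12 colon and epithelial markers 8 had a mean FPKM of at least 0.1 and CEACAM5 was at 0. Their summed FPKM was 324 to 340 after washout, 269 to 273 with IAA and 337 to 347 in control. Genes of short span weigh more in such a sum. By limma KRT8, KRT18 and KRT19 fell with IAA and 0 rose. On recovered reads EPCAM also fell, and CDX2 and VIL1 rose. Of 14 fibroblast, endothelial and blood markers with a row, 2 reached a mean FPKM of 0.1, with sums of 0.954 to 0.986 after washout, 0.755 to 0.959 with IAA and 0.667 to 0.757 in control. The part of these shifts in the receptor results was not tested.

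Levels were compared between receptors as recovered reads per kilobase of exon, scaled to library size, from GENCODE 29 exon lengths. The sources used here do not give whether reads in introns were counted. NR2F2 (COUP-TFII), an orphan receptor that mostly represses its targets, had the highest level of the family, at 59.3 ± 0.42 after washout, 56.3 ± 0.90 with IAA and 65.1 ± 1.64 in control (SD, n = 2 each). NR1D2, a heme-binding repressor of the circadian clock, followed at 27.0 ± 0.17 after washout, 23.0 ± 0.31 with IAA and 24.8 ± 0.37 in control. The next levels, averaged over the 6 libraries, were those of NR2F6 (20.1), ESRRA (16.7), RXRB (13.5), NR2F1 (11.7) and NR1D1 (10.2). NR2F1 stood at 13.7 ± 1.32 after washout, 6.08 ± 0.076 with IAA and 15.2 ± 0.78 in control, so its place in the order differed between groups. PPARD (9.50 ± 0.93 in control) and RARG (9.43 ± 0.63 in control) differed by less than their spread.

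**Figure D1:**
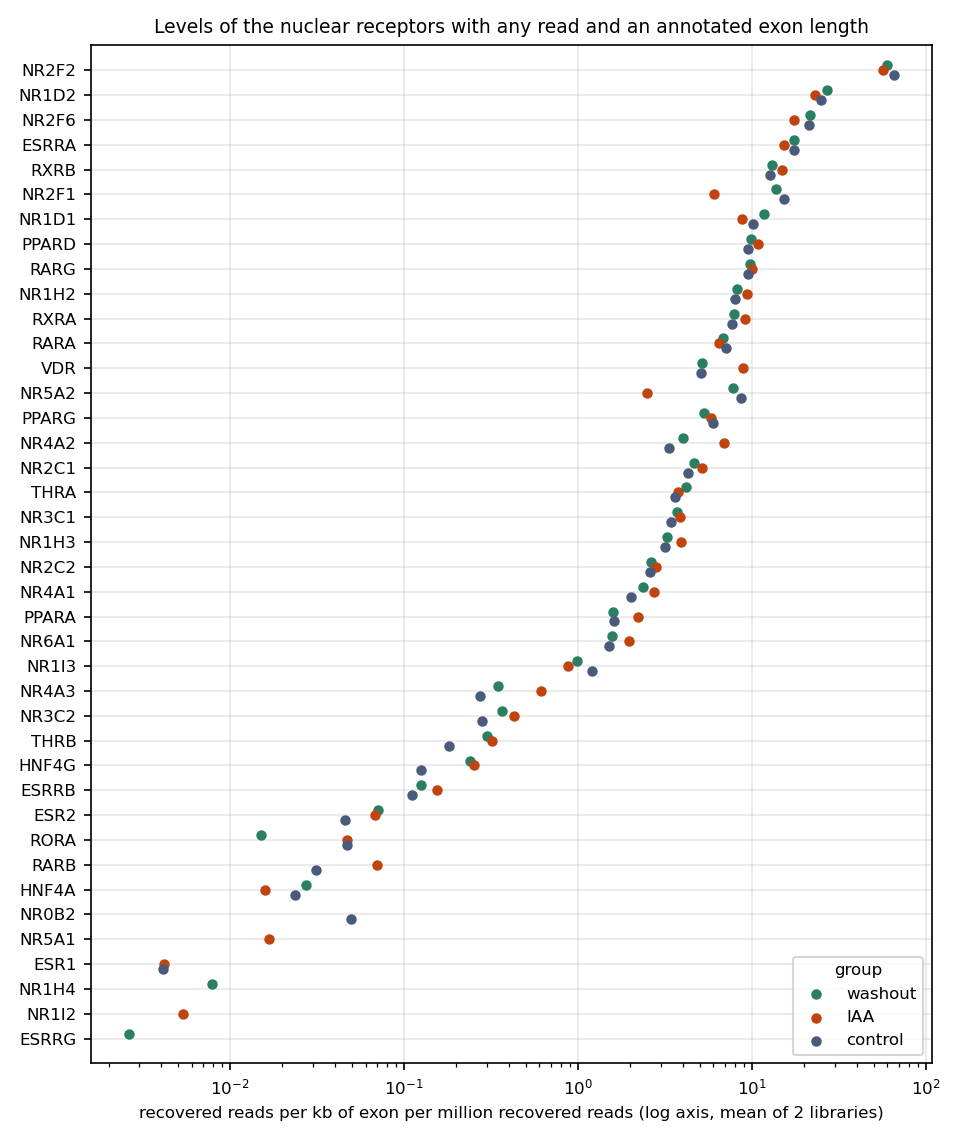
Mean level of 40 receptors with any read and an annotated exon length, on a log axis. Levels are recovered reads per kilobase of exon scaled to library size. Each group (washout, IAA, control) has a point where its mean was above 0. NR2F2 stands highest, near 60.2 over the 6 libraries, and the receptors at the bottom rest on 6 or fewer reads per library.

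PGR, NR2E1, RXRG, NR0B1 and RORB were listed at 0 in all 6 libraries, which allows up to 3 reads each. Another 9 members had reads but at most 6 in any library. Among them was HNF4A, a master regulator of gut epithelium in normal colon, with 2 and 5 reads after washout, 3 and 1 with IAA, and 2 and 4 in control. The estrogen receptor ESR1 had 0 and 0 reads after washout, 1 and 1 with IAA, and 1 and 1 in control. The bile acid receptor NR1H4, the xenobiotic receptor NR1I2 and the estrogen-related receptor ESRRG had 1 read in 1 library each. NR5A1, the steroidogenic relative of NR5A2, had 1 read in each IAA library and none elsewhere, and NR0B2, the bile acid induced corepressor SHP, had 2 reads in control replicate 2 alone. NR2E3, a photoreceptor factor, had at most 2 reads per library, and the retinoic acid receptor RARB had 0 and 0 after washout, 3 and 6 with IAA, and 2 and 2 in control. No change can be read from such numbers at this depth.

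IAA was compared with control to see which receptors changed within 3 h of the treatment that degrades ENL. NR2F1 (COUP-TFI) and NR5A2 (LRH-1), a constitutively active receptor of crypt and steroidogenic tissue, fell to 0.399 and 0.289 of control, and NR2F2 fell to 0.865. The immediate early receptors NR4A2 and NR4A1 rose 2.08-fold and 1.35-fold, and the vitamin D receptor VDR rose 1.75-fold. By limma on log2(FPKM + 0.1), 3 of 24 tested members rose (12.5%, against 4.4% of all 14809 tested genes) and 3 fell (12.5%, against 3.77%). The median log2 change of the 24 members was 0.09, against 0.03 over all genes. Among all genes 651 rose and 559 fell (53.8% higher), and with FPKM rescaled to TPM 472 rose and 631 fell (42.8% higher).

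On recovered reads, tested with limma's voom in genes with a mean of at least 10 reads, 32 members could be tested. With IAA 7 of them rose (21.9%, against 10.8% of 14792 genes) and 6 fell (18.8%, against 12.8%). To those named above this test added NR4A3, PPARA, RXRA and RXRB among the rises and NR2F6, ESRRA and NR1D2 among the falls. The median was 0.17 for the 32 members and 0.0 for all genes. Of the 8 members that this test reached and the FPKM filter did not, NR4A3 alone changed with IAA.

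Washout was compared with IAA to see which receptors moved back after IAA was removed. It shares the IAA libraries with the comparison above, so a value that is extreme in those libraries enters both. By limma 4 of 24 members rose (16.7%, against 4.33% of all genes), NR2F1 2.26-fold, NR5A2 3.15-fold, NR1D1 1.33-fold and NR1D2 1.18-fold. NR4A2 and VDR fell to 0.580 and 0.578 of the IAA level, 2 of 24 members (8.33%, against 4.15%). The median log2 change of the members was -0.06 and that of all genes -0.01. All genes split into 641 that rose and 614 that fell (51.1% higher), and after rescaling to TPM into 784 and 455 (63.3% higher). On recovered reads 6 of 32 members rose, against 13.2% of all genes, and 6 fell, against 12%. The rises then also held ESRRA and NR2F6, and the falls NR4A3, PPARA, RXRA and RORA.

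Between washout and control 0 of 24 members passed by limma, against 0.182% of all genes, and 5 (20.8%, against 8.54% of all genes) had an unadjusted p under 0.05. On recovered reads 0 of 32 passed, against 0.696% of all genes, and 6 (18.8%, against 10.9%) had an unadjusted p under 0.05. The limma log2 changes of the 24 members lay between -0.25 (NR1I3) and 0.24 (NR4A2). A p that misses the threshold does not show that washout and control levels were alike.

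**Figure D2:**
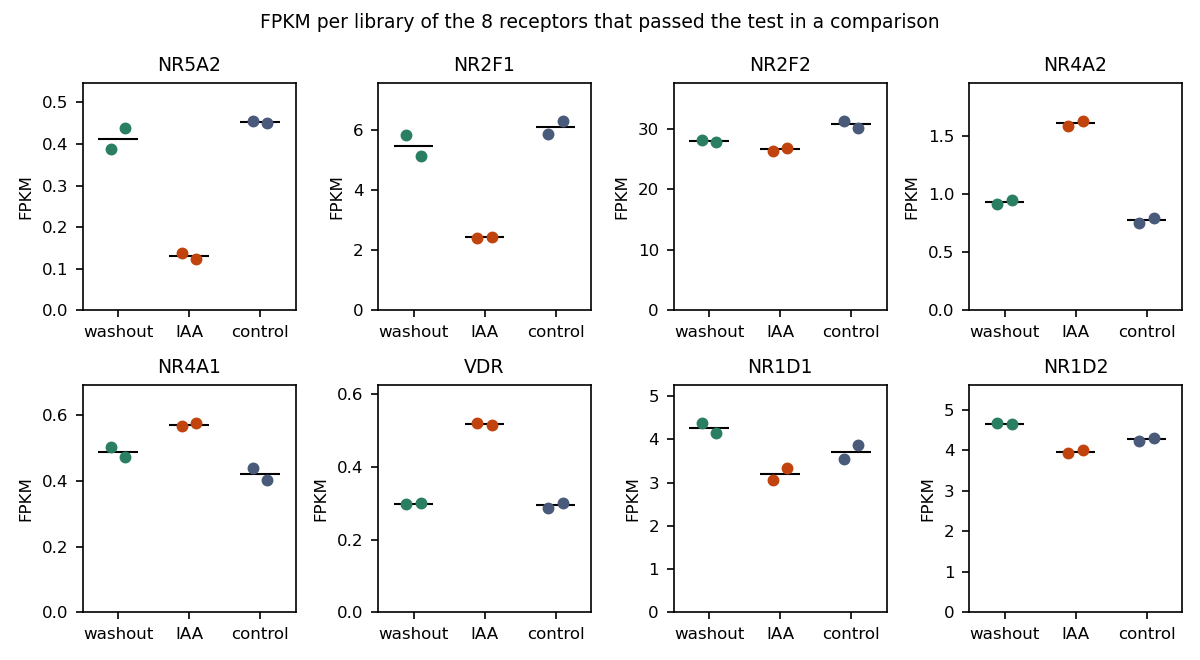
FPKM of each library (points, with a bar for the group mean) for the 8 receptors that passed the limma test in IAA against control or washout against IAA, in washout, IAA and control from left to right. Both IAA points of NR5A2 (0.139 and 0.123) and NR2F1 (2.42 and 2.45) lie below all others, and both of NR4A2 (1.59 and 1.63) and VDR (0.521 and 0.516) above.

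NR5A2 (ENSG00000116833.9, chromosome 1) had an FPKM of 0.387 and 0.438 after washout, 0.139 and 0.123 with IAA, and 0.456 and 0.451 in control. Both IAA libraries stood below all others, and the washout pair stood just below the control pair. These values stand for 969 and 1092 reads after washout, 342 and 309 with IAA, and 1134 and 1133 in control. The limma log2 change was -1.26 in IAA against control (SE 0.086, adjusted p = 0.0121) and 1.15 in washout against IAA (SE 0.086, adjusted p = 0.0133). On recovered reads, where no pseudocount of 0.1 FPKM shrinks the value, it was -1.83 (voom adjusted p = 3.63e-16) and 1.67 (5.84e-15). NR6A1 (germ cell nuclear factor), an orphan repressor of pluripotency genes grouped with NR5A2 here, had 198 and 191 reads after washout, 230 and 255 with IAA, and 204 and 171 in control, with a voom log2 change of 0.35 with IAA (adjusted p = 0.0815). In bulk RNA, fewer cells that express a gene and less of its RNA per cell cannot be told apart.

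The COUP-TF receptors bind direct repeats as dimers and mostly repress, and all 3 were lower with IAA. NR2F1 (ENSG00000175745.7, chromosome 5) had an FPKM of 5.86 and 5.13 after washout, 2.42 and 2.45 with IAA, and 5.88 and 6.32 in control. The IAA pair lay far below the others, and washout replicate 1 nearly met control replicate 1. The limma log2 change was -1.29 with IAA (SE 0.079, adjusted p = 0.0101) and 1.14 in washout against IAA (SE 0.079, adjusted p = 0.0115). NR2F2 (ENSG00000185551.8, chromosome 15) had an FPKM of 28.1 and 27.9 after washout, 26.3 and 26.8 with IAA, and 31.3 and 30.1 in control. The 3 groups did not overlap, and washout lay between IAA and control. Its log2 change was -0.21 with IAA (SE 0.034, limma adjusted p = 0.0414) and 0.07 in washout against IAA (adjusted p = 0.253), and in washout against control it was -0.13 (limma adjusted p = 0.525, voom 0.0568). NR2F6 (ENSG00000160113.5, EAR2), a repressor studied in T cells and colon, had an FPKM of 4.59 and 4.01 after washout, 3.25 and 3.68 with IAA, and 4.09 and 4.37 in control. Its fall of -0.33 and its rise of 0.33 passed by voom on recovered reads (adjusted p = 0.00259 and 0.002) and missed by limma (0.168 and 0.142).

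An antisense gene, NR2F1-AS1, overlaps exons of NR2F1, and no source used here gives the strand, so reads in the shared bases cannot be told apart. The same holds for VDR and AC121338.1 and for NR4A1 and AC025259.3. MIR1469 lies in the exons of NR2F2, and AC010646.1 overlaps those of NR2F6.

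The NR4A receptors (NUR77, NURR1 and NOR1) are encoded by immediate early genes and bind DNA as monomers or dimers. NR4A2 (ENSG00000153234.9, chromosome 2) had an FPKM of 0.918 and 0.949 after washout, 1.59 and 1.63 with IAA, and 0.753 and 0.796 in control. The IAA pair was highest, and washout lay above control without overlap. Its log2 change was 0.97 with IAA (SE 0.046, limma adjusted p = 0.00733), -0.73 in washout against IAA (SE 0.046, adjusted p = 0.01) and 0.24 in washout against control (adjusted p = 0.461). NR4A1 (ENSG00000123358.15, chromosome 12) had an FPKM of 0.504 and 0.473 after washout, 0.566 and 0.576 with IAA, and 0.440 and 0.403 in control. The order of the groups was that of NR4A2, with narrower gaps. Its log2 change was 0.36 with IAA (SE 0.064, limma adjusted p = 0.0477) and -0.19 in washout against IAA (adjusted p = 0.154, voom 0.209). NR4A3 (ENSG00000119508.13, chromosome 9), whose promoter with its TGACG matches is printed above, lay below the FPKM filter, with 37 and 39 reads after washout, 64 and 71 with IAA, and 33 and 27 in control. The IAA pair was again the highest of the 3. On recovered reads its log2 change was 1.13 with IAA (SE 0.30, voom adjusted p = 0.00549) and -0.81 in washout against IAA (SE 0.28, voom adjusted p = 0.0347). All 3 NR4A genes had both IAA libraries above the other 4. Receptors of other groups had this order too, among them VDR, PPARA, RXRA and NR2C1. The share of all genes with this order was not counted.

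VDR (ENSG00000111424.6, chromosome 12), the receptor for calcitriol, had an FPKM of 0.298 and 0.301 after washout, 0.521 and 0.516 with IAA, and 0.289 and 0.303 in control. Both IAA libraries stood above all others, and washout and control overlapped. The log2 change was 0.64 with IAA (SE 0.058, limma adjusted p = 0.017), -0.63 in washout against IAA (SE 0.058, adjusted p = 0.0175) and 0.01 in washout against control. Of the related xenobiotic receptors, NR1I3 (CAR) had an FPKM of 0.360 and 0.424 after washout, 0.317 and 0.380 with IAA, and 0.488 and 0.477 in control. Its log2 change of -0.38 with IAA missed the threshold (limma adjusted p = 0.119, voom 0.179). Exons of NR1I3 overlap those of TOMM40L, which had an FPKM of 1.63 and 1.37 with IAA and 2.23 and 2.20 in control.

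RXRs are the partners that VDR, RARs, PPARs, LXRs and thyroid hormone receptors need to bind DNA as heterodimers. RXRA had 1551 and 1513 reads after washout, 1722 and 1785 with IAA, and 1459 and 1522 in control. The IAA pair was highest, and the log2 change of 0.21 with IAA and -0.18 in washout against IAA passed by voom on recovered reads (adjusted p = 0.00843 and 0.019) and missed by limma (0.0588 and 0.0809). RXRB had an FPKM of 7.64 and 7.11 after washout, 8.52 and 8.31 with IAA, and 6.83 and 7.46 in control, and rose with IAA on recovered reads alone (log2 change 0.20, voom adjusted p = 0.0437, limma 0.109). Its exons overlap those of SLC39A7 on the opposite strand.

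PPARA, which drives fatty acid oxidation, had an FPKM of 0.237 and 0.234 after washout, 0.341 and 0.317 with IAA, and 0.247 and 0.232 in control. The IAA pair stood above the other 4 libraries. It rose with IAA by 0.42 and fell by 0.46 in washout against IAA on recovered reads (voom adjusted p = 0.00188 and 0.000756), and by limma it missed the threshold (0.0788 and 0.0703). PPARD, a fatty acid receptor common in epithelia, had an FPKM of 0.544 and 0.530 after washout, 0.575 and 0.602 with IAA, and 0.553 and 0.481 in control. PPARG, the adipogenic receptor that also serves colon differentiation, had 0.177 and 0.166 after washout, 0.203 and 0.174 with IAA, and 0.206 and 0.179 in control, and its IAA and control libraries overlapped. Neither passed in any comparison by limma or voom.

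The tested retinoic acid, oxysterol and thyroid hormone receptors did not pass in any comparison by either test. Among the retinoic acid receptors, RARG had an FPKM of 2.31 and 2.35 after washout, 2.39 and 2.42 with IAA, and 2.15 and 2.36 in control, and the control libraries spanned more than the gap between the group means. RARA had 0.670 and 0.740 after washout, 0.610 and 0.732 with IAA, and 0.745 and 0.722 in control, and its groups overlapped. The oxysterol receptor NR1H3 (LXR alpha) had an FPKM of 0.690 and 0.804 after washout, 0.909 and 0.903 with IAA, and 0.642 and 0.822 in control. Its relative NR1H2 (LXR beta) had 0.626 and 0.578 after washout, 0.656 and 0.730 with IAA, and 0.597 and 0.582 in control. For both LXRs the IAA pair stood above the control pair, with log2 changes of 0.28 and 0.20 (limma adjusted p = 0.266 and 0.174). Exons of NR1H3 overlap those of ACP2. The thyroid hormone receptor THRA had an FPKM of 0.839 and 0.866 after washout, 0.697 and 0.835 with IAA, and 0.741 and 0.726 in control. THRB, of long gene span, had 67 and 47 reads after washout, 58 and 64 with IAA, and 33 and 36 in control, and its log2 change of 0.78 with IAA had a voom adjusted p of 0.058.

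The REV-ERBs, NR1D1 and NR1D2, repress clock genes at sites where RORs activate them. NR1D1 (ENSG00000126368.5, chromosome 17) had an FPKM of 4.38 and 4.14 after washout, 3.06 and 3.35 with IAA, and 3.56 and 3.86 in control. NR1D2 (ENSG00000174738.8, chromosome 3), whose promoter with its E-boxes is printed above, had 4.67 and 4.64 after washout, 3.93 and 3.99 with IAA, and 4.22 and 4.31 in control. For both, washout was highest and IAA lowest, and the 3 groups did not overlap. NR1D1 rose by 0.40 in washout against IAA (SE 0.072, limma adjusted p = 0.0492) and NR1D2 by 0.23 (SE 0.033, adjusted p = 0.0343). With IAA against control their log2 changes were -0.21 and -0.10 (limma adjusted p = 0.169 and 0.147), and on recovered reads NR1D2 fell by 0.14 (voom adjusted p = 0.0361). In washout against control they were 0.19 and 0.12 (limma adjusted p = 0.581 and 0.537). NR1D1 and THRA overlap in their exons on opposite strands, so reads in the shared bases cannot be told apart. RORA had 5 and 4 reads after washout, 14 and 14 with IAA, and 12 and 16 in control. It fell in washout against IAA (log2 change -1.53, SE 0.57, voom adjusted p = 0.0479), on few reads. Against control the washout value of RORA was -1.54 (voom adjusted p = 0.286).

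The estrogen-related receptor ESRRA, which drives mitochondrial genes without binding estrogen, had an FPKM of 5.26 and 4.68 after washout, 4.42 and 4.24 with IAA, and 5.04 and 4.79 in control. The IAA pair was lowest. Its log2 change on recovered reads was -0.22 with IAA and 0.22 in washout against IAA (voom adjusted p = 0.0339 and 0.0334), and by limma it missed (0.208 and 0.177). Exons of ESRRA overlap those of TRMT112. ESRRB, a pluripotency factor, had 9 and 17 reads after washout, 13 and 19 with IAA, and 15 and 8 in control. The estrogen receptor ESR2 had 6 and 17 reads after washout, 11 and 11 with IAA, and 8 and 7 in control. Both overlapped between washout and control.

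The glucocorticoid receptor NR3C1 had an FPKM of 0.228 and 0.225 after washout, 0.237 and 0.230 with IAA, and 0.228 and 0.189 in control, with a log2 change of 0.12 with IAA (limma adjusted p = 0.516). The mineralocorticoid receptor NR3C2 had 44 and 40 reads after washout, 46 and 53 with IAA, and 32 and 33 in control (voom adjusted p = 0.204 for IAA against control). The orphan receptors NR2C1 and NR2C2 together repress embryonic globin genes. NR2C1 had an FPKM of 0.630 and 0.558 after washout, 0.666 and 0.647 with IAA, and 0.541 and 0.559 in control (log2 change 0.22 with IAA, limma adjusted p = 0.143). NR2C2 had 0.312 and 0.299 after washout, 0.337 and 0.318 with IAA, and 0.288 and 0.317 in control (log2 change 0.09, limma adjusted p = 0.528). HNF4G, a relative of HNF4A in the gut, had 31 and 9 reads after washout, 23 and 19 with IAA, and 11 and 10 in control, and the washout pair overlapped both other groups.

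**Figure D3:**
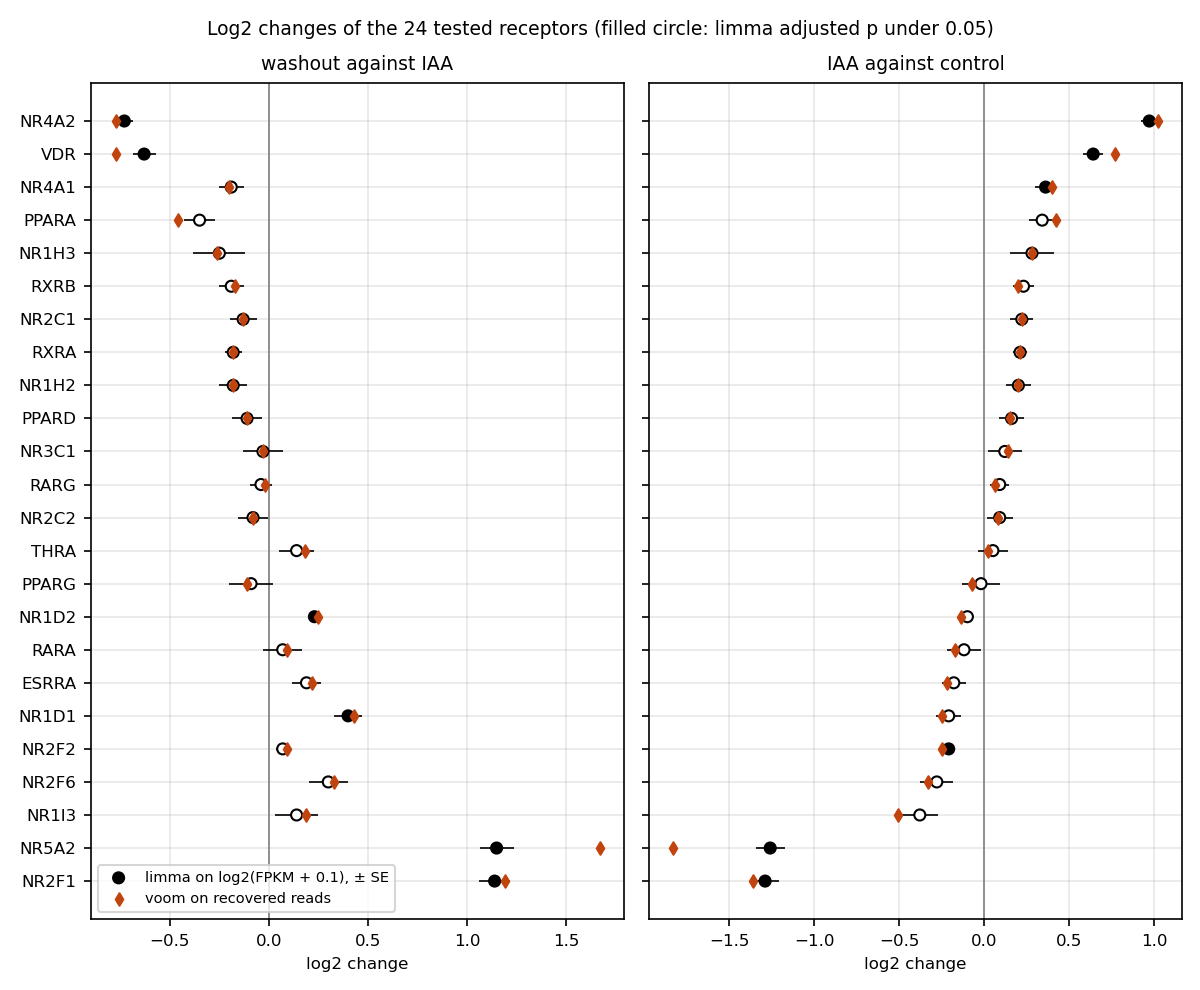
Log2 changes of the 24 tested receptors in washout against IAA (left) and IAA against control (right). Circles with SE are limma, filled where the adjusted p is under 0.05, and diamonds are voom on recovered reads. NR5A2 and NR2F1 lie farthest below 0 in IAA against control (limma -1.26 and -1.29). NR4A2 and VDR lie farthest above 0 there (0.97 and 0.64).

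With 2 libraries a group the limma calls rest on a few degrees of freedom. Without IAA replicate 1 the NR4A2 call of IAA against control was lost (adjusted p = 0.054), and it held without each other library. The NR2F1 and NR5A2 calls were lost without either control or either IAA library (adjusted p up to 0.0856 and 0.0874) and held without a washout library. Those of VDR (0.0567 to 0.0989), NR2F2 (0.0901 to 0.153) and NR4A1 (0.0951 to 0.174) were lost without any 1 of the 6. In washout against IAA the NR2F1 call held without a washout library and was otherwise lost (up to 0.0892), and that of NR4A2 held without a control library and was otherwise lost (up to 0.079). The calls of NR5A2 (0.058 to 0.0732), VDR (0.0598 to 0.0956), NR1D1 (0.0948 to 0.18) and NR1D2 (0.0788 to 0.132) were lost without any 1 of the 6. None of these calls turned in direction, and the log2 change of NR5A2 with IAA stayed between -1.31 and -1.21. The 8 receptors that passed by limma also passed on recovered reads in the same comparison and direction. The recovered reads come from the same FPKM values, so this is not a separate check.

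Receptors work through coregulators, and a list of 22 coactivators and 15 corepressors was read in the same fit. Of 20 tested coactivators 1 rose and 2 fell with IAA (median log2 change 0.08, against 0.03 over all genes, of which 4.4% rose and 3.77% fell). On recovered reads 3 of 21 coactivators rose and 5 fell, against 10.8% and 12.8% of all genes. NCOA3, a coactivator that binds receptors with bound ligand, had an FPKM of 0.577 and 0.622 after washout, 0.894 and 0.829 with IAA, and 0.564 and 0.588 in control. It rose with IAA by 0.51 (limma adjusted p = 0.0263) and fell by 0.46 in washout against IAA (0.0307). PPARGC1B and PPRC1, of the PGC-1 family that serves ERRs and PPARs, fell to 0.546 and 0.751 of control (limma adjusted p = 0.0414 and 0.0263). After washout PPRC1 rose 1.34-fold over IAA (limma adjusted p = 0.0256), and PPARGC1B stood at 1.65-fold (limma adjusted p = 0.0581, voom 1.3e-06). The third PGC-1 gene, PPARGC1A, was listed at 0 in all libraries.

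Of 15 tested corepressors 0 rose and 1 fell with IAA by limma (median 0.06), against 4.4% and 3.77% of all genes. On recovered reads 1 rose and 5 fell, against 10.8% and 12.8% of all genes. The fall by limma was that of TBL1XR1, the exchange factor of the NCOR complex, at 0.745 of control (limma adjusted p = 0.0229), and it rose 1.27-fold in washout against IAA (0.0313). The corepressor NCOR1 itself stood at 0.882 of control without passing by limma, and fell on recovered reads. Of 10 chaperones that fold steroid receptors 1 rose with IAA (median 0.02), DNAJB1, 1.19-fold (limma adjusted p = 0.0342). In washout against IAA DNAJB1 fell to 0.867 and HSP90AA1 to 0.893 (limma adjusted p = 0.0466 and 0.0441), and neither passed with TPM.

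Known target genes of the receptors were read likewise, as 10 lists with 67 tested genes. With IAA 5 of them rose (7.46%, against 4.4% of all genes) and 7 fell (10.4%, against 3.77%) by limma. On recovered reads 13 of 75 rose (17.3%, against 10.8%) and 15 fell (20%, against 12.8%). Of 9 vitamin D receptor targets 2 could be tested by limma, and they moved in opposite directions. Their median log2 change was -0.50, and that of the 3 tested on recovered reads was 0.44. CYP24A1, the hydroxylase that degrades calcitriol and the classic VDR target, had an FPKM of 0.499 and 0.480 after washout, 0.119 and 0.0901 with IAA, and 0.475 and 0.390 in control. It fell with IAA by 1.38 (SE 0.12, limma adjusted p = 0.0167), while VDR itself rose, and it rose by 1.53 in washout against IAA (adjusted p = 0.0145). ORAI3, a calcium channel subunit, rose by 0.38 with IAA (limma adjusted p = 0.0468, voom 0.3), on 38 to 56 reads per library.

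The counts of single lists below stand beside 4.4% of all genes that rose and 3.77% that fell with IAA by limma. Among 7 tested retinoic acid receptor targets 1 rose and 0 fell. DHRS3, which reduces retinal, rose 2.17-fold (median of the list 0.05, limma adjusted p = 0.0241), and it fell to 0.429 of the IAA level after washout (0.0212). Of 8 targets of LXR and FXR 1 rose and 1 fell with IAA (median -0.03). MYLIP, the ligase that degrades the LDL receptor, rose 1.97-fold (limma adjusted p = 0.0128) and fell to 0.546 after washout (0.0145). FGF19, the bile acid signal of the gut, fell to 0.775 of control (limma adjusted p = 0.0498), and NR1H4, the receptor it is known to follow, had 1 read in 1 library. Of 10 PPAR targets 0 rose and 1 fell (median -0.0), the fatty acid activating enzyme ACSL5, to 0.729 (limma adjusted p = 0.0258). Of 10 glucocorticoid receptor targets 1 fell (median 0.12), ERRFI1, an inhibitor of the EGF receptor, to 0.763 (limma adjusted p = 0.017). On recovered reads PER1, also a clock gene, and TSC22D3, an anti-inflammatory factor, rose by 0.82 and 0.57 with IAA (voom adjusted p = 4.37e-05 and 0.00533, limma 0.13 and 0.103), and both fell in washout against IAA. Of 4 estrogen receptor targets 1 fell (median -0.02), CCND1 (cyclin D), to 0.624 (limma adjusted p = 0.00749). After washout ACSL5, ERRFI1 and CCND1 rose 1.26-fold, 1.28-fold and 1.54-fold over IAA (limma adjusted p = 0.0432, 0.0199 and 0.00866).

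Of 11 clock genes under REV-ERB and ROR control 2 rose and 2 fell with IAA (median -0.11), against 4.4% and 3.77% of all genes by limma. CRY2, a repressor of the clock, and NPAS2, a partner of the clock activator, rose 1.81-fold and 1.79-fold (limma adjusted p = 0.0239 and 0.0337). CLOCK, an activator, and BHLHE40, a repressor, fell to 0.722 and 0.572 (limma adjusted p = 0.0195 and 0.0301). After washout CLOCK, BHLHE40 and TEF rose and CRY2 and NPAS2 fell relative to IAA. By limma 0 of 9 tested ERR targets (median 0.04), 0 of 4 HNF4 targets (0.11) and 0 of 3 NR4A targets and partners (-0.07) passed with IAA, and on recovered reads CS fell and CDX2 and VIL1 rose among them, with CLDN2 lower. None of these lists had a member that passed in washout against control by limma, and on recovered reads HSP90AA1 was lower.

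**Figure D4:**
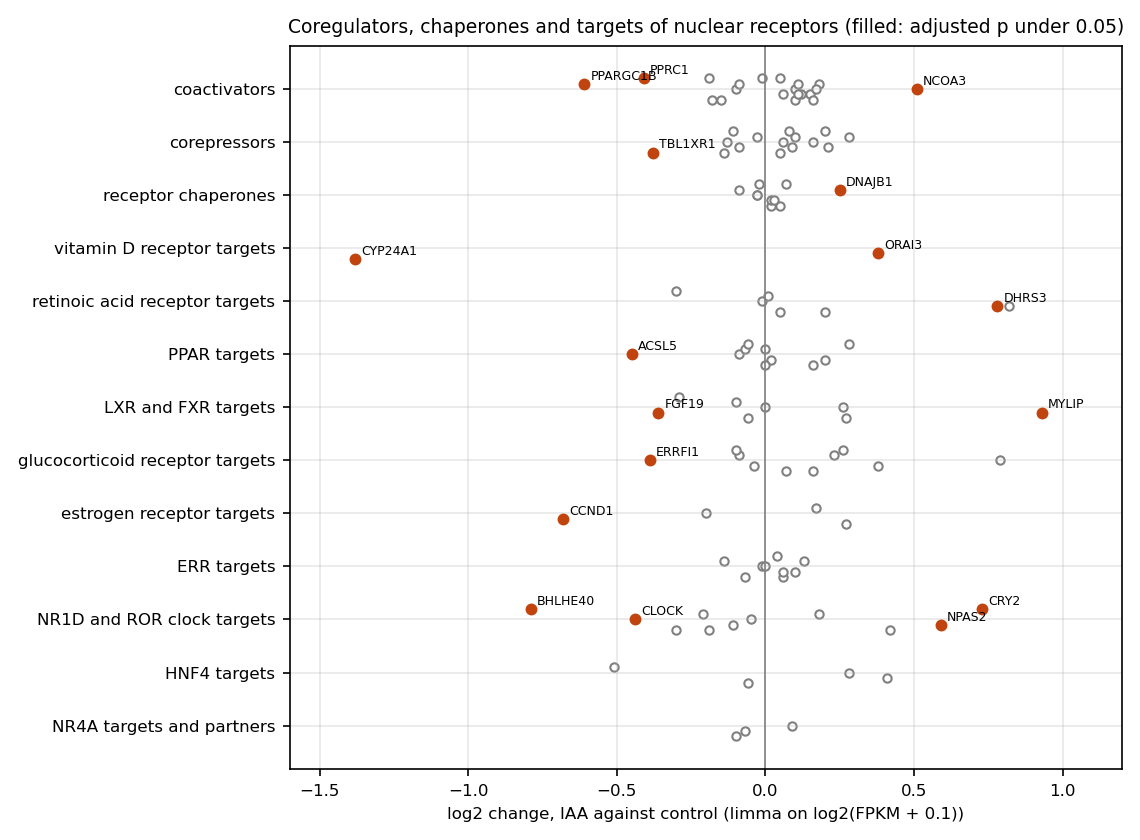
Limma log2 changes in IAA against control of the tested coregulators, chaperones and target genes, a row of points per list, filled where the adjusted p is under 0.05. Most points lie near 0, and CYP24A1 lies farthest below, at -1.38, and MYLIP farthest above, at 0.93.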

How the data were processed

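Poly(A)-selected RNA from 6 HCT116 ENL-AID libraries was measured as FPKM, which the authors deposited as 1 table of genes by libraries. HISAT, Bowtie2, HTSeq and edgeR on hg19 are listed per the submitters' processing notes, with versions, annotation release, strand and filters not given in the sources used here. Grouping followed the labels, 2 libraries per group, and shared replicate numbers were not treated as pairs (correlations of deviations from group means 0.00736 to 0.0576).

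The members and gene lists were chosen with earlier results of these data known. The 14809 genes whose FPKM averaged 0.1 or more entered a limma fit (version 3.58.1, R 4.3.3) of log2(FPKM + 0.1), using a prior variance trend, 3 residual and 1.32 prior degrees of freedom, two-sided, Benjamini-Hochberg over all genes, threshold 0.05 and no fold limit. The pseudocount makes log2 changes of low genes smaller than their folds, which are ratios of mean FPKM.

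The step of each gene's FPKM matched its GENCODE 29 span within 2% for 88.3% of 13299 genes with at least 20 reads in every library, and its exon length for 9.5%. Of the gene IDs, 94.3% are in GENCODE 29. Whole reads (tolerance 0.02 reads) came out for 99.91% of genes above 0. For 19048 genes the span fixed the reads. Whole reads were imposed on 2055 genes at the nearest solution and on 585 at the smallest. These reads were tested with voom (14792 genes with a mean of at least 10 reads, TMM scaling), which called 3496 genes in IAA against control and 3734 in washout against IAA. Depth was nearly even, so counting limits members with few reads, and a 0 allows up to 3 reads, for counting error only.

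Named were all members with a read, those listed at 0, and from each list up to 4 passing genes with the largest change per comparison. Genes named beyond this rule were chosen after their values were seen. In the text, passed, rose and fell refer to an adjusted p under 0.05. Exon overlaps come from GENCODE 29, and 13 of the 24 tested members overlap another gene's exons. Promoters come from RefSeq on GRCh38.p14. Alternatives were other pseudocounts and filters, TPM, a replicate block, voom and leaving out each library.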

Additional observations from a re-analysis of the deposited data

How the results depend on the processing

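No named receptor or listed gene that passed by limma changed direction under any alternative run that could test it. Genes called in IAA against control numbered 1210 as reported, 73 with the replicate block, 3496 with voom and 116 to 175 without 1 library. In washout against IAA they numbered 1255, 77, 3734 and 114 to 154. In washout against control 27 were called, of which 26 had under 10 reads on average, and 9 with log2(FPKM + 0.01), 0 with log2(FPKM + 1) and a mean FPKM of at least 1, 0 with a mean of at least 0.5, 52 with no filter, 0 with the replicate block, 103 with voom and 52 to 84 without 1 library. Receptors called in IAA against control numbered 6, and 3 under either stricter filter, 1 with the block, 13 with voom and 0 to 3 without 1 library. In washout against IAA they numbered 6, and 1 with the block, 12 with voom and 0 to 1 without 1 library. NR4A2 alone stayed called with the block (adjusted p = 0.0454 and 0.0481). Listed genes called in IAA against control numbered 20, and 12 with log2(FPKM + 1) and a mean of at least 1, 0 with the block, 47 with voom and 1 to 4 without 1 library. In washout against IAA they numbered 19, and 12 with no filter, 1 with the block, 49 with voom and 0 to 1 without 1 library. In washout against control 0 listed genes were called, and 1 with voom. NR4A1 was not called with log2(FPKM + 1), no filter or TPM, nor NR1D1 with no filter. VDR, NR4A1 and NR5A2, with mean FPKM under 0.5, are not tested under the stricter filters, and a left-out library or a block leaves fewer residual degrees of freedom. Deviations from group means, matched by replicate number, had correlations of 0.0576 (IAA and control), 0.0504 (washout and IAA) and 0.00736 (washout and control). Low correlations do not show that libraries with the same number had no culture or batch in common, and this was not tested. The planned fits of edgeR and DESeq2 on recovered reads were not run. Depth limits the 9 receptors with at most 6 reads per library.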
